A study of Mus musculus with 15 samples.

Results

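The genes described here encode the collagen chains and a set of matrix and meningeal proteins, followed in the striatum and cerebral cortex of mice with and without the transporter gene Slc1a4. Members were taken by name: every gene whose symbol denotes a numbered collagen chain, plus Dcn, Lum, Igf2, Slc6a20b, Nov, Ogn, Fmod, Bgn, Fn1 and Spp1, provided that its normalized count reached 10 in at least 3 of 15 libraries. Of 54 such genes, 53 passed (43 of 44 collagen chains and all 10 others), out of 17030 genes that passed among 26595. The chain that did not pass was Col10a1, a collagen of growing cartilage, which stood at 0 to 6.55 normalized counts in the 15 libraries.

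RNA was sequenced from male C57Bl/6 mice aged 5 months. The groups were KO striatum (3 libraries), WT striatum (4), KO cortex (4) and WT cortex (4). KO mice carried the genotype SLC1a4 -/-, loss of both copies of the gene for ASCT1, a carrier of serine and other small neutral amino acids, and WT mice were wild type. The deleted stretch of the gene is not given in the sources used here. Whether each replicate came from its own animal is not stated in the labels, and the p-values reflect the scatter of these libraries and no more.

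Collagens are triple helices of 3 chains that cells secrete into the extracellular matrix. In the brain, fibrillar collagens and leucine-rich proteoglycans are made mainly by fibroblasts of the meninges and of large vessels, collagen IV forms the basement membrane of blood vessels, and several minor or membrane-bound collagens are made by neurons. Bulk tissue mixes these sources, and fewer cells of a type and less RNA per cell cannot be told apart.

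Slc1a4 stood at 344, 311 and 158 normalized counts in KO striatum and 1237, 1660, 1726 and 1509 in WT striatum. In cortex it stood at 252, 308, 249 and 251 in KO and 1591, 1613, 1797 and 1494 in WT, so every KO library lay below every WT library of its tissue (log2 fold change -2.56 in striatum and -2.61 in cortex, limma adjusted p = 2.3e-05 and 1.2e-05). Counted reads per library ran from 23260155 to 24006391 in KO striatum, 22990233 to 25697792 in WT striatum, 28114119 to 30276815 in KO cortex and 26791109 to 29342263 in WT cortex. The tissue labels held: 12 striatal projection neuron markers summed to 53652 to 119951 in KO striatum, 103246 to 222908 in WT striatum, 11444 to 17405 in KO cortex and 11212 to 25959 in WT cortex. A pair of striatum libraries stood apart by their choroid plexus transcripts, whose 20 markers summed to 158617 in KO replicate 4 and 232065 in WT replicate 5, against 10128 to 20430 in the other 5 striatum libraries. KO replicate 4 also had the highest striatal sums of thalamic, septal and pallidal markers (39324, against 6638 and 9173 in the other KO and 9884 to 25494 in the WT striatum libraries) and of other meningeal markers (20666, against 9601 and 9697 in KO and 7928 to 11611 in WT), and the lowest sum of striatal projection neuron markers (53652). None of the 20 choroid plexus markers was at 0 in all libraries and 1 was at 0 in at least 1 library.

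Dcn, Col1a1 and Col1a2, which mark meningeal fibroblasts, were present in every library and were not called between the tissues, whereas 11 of 22 other meningeal and fibroblast markers in KO and 12 of 22 in WT were, where 37.9% and 50.5% of all genes were called. Dcn, which encodes decorin, a proteoglycan that coats collagen fibrils, stood at 186, 187 and 598 normalized counts in KO striatum, 267, 288, 171 and 250 in WT striatum, 196, 340, 217 and 164 in KO cortex, and 227, 216, 330 and 193 in WT cortex. The KO striatum library with 598 is replicate 4, 1 of the pair rich in choroid plexus transcripts; otherwise the groups overlapped. Col1a1, the first chain of collagen I, stood at 174, 128 and 217 in KO striatum, 146, 196, 98.7 and 136 in WT striatum, 144, 561, 173 and 107 in KO cortex, and 121, 217, 176 and 118 in WT cortex. Here KO cortex replicate 2 was far above all other libraries. Col1a2, the second chain, stood at 207, 310 and 510 in KO striatum, 399, 298, 211 and 340 in WT striatum, 354, 631, 379 and 258 in KO cortex, and 290, 338, 414 and 245 in WT cortex, with all groups overlapping. For striatum against cortex the log2 fold changes were 0.32 (SE 0.36) in KO and 0.02 (SE 0.33) in WT for Dcn, -0.22 (SE 0.43) and -0.13 (SE 0.40) for Col1a1, and -0.27 (SE 0.32) and -0.05 (SE 0.29) for Col1a2. By limma none of the 3 passed in any comparison, with adjusted p from 0.52 to 0.97 between tissues.

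**Figure D1:**
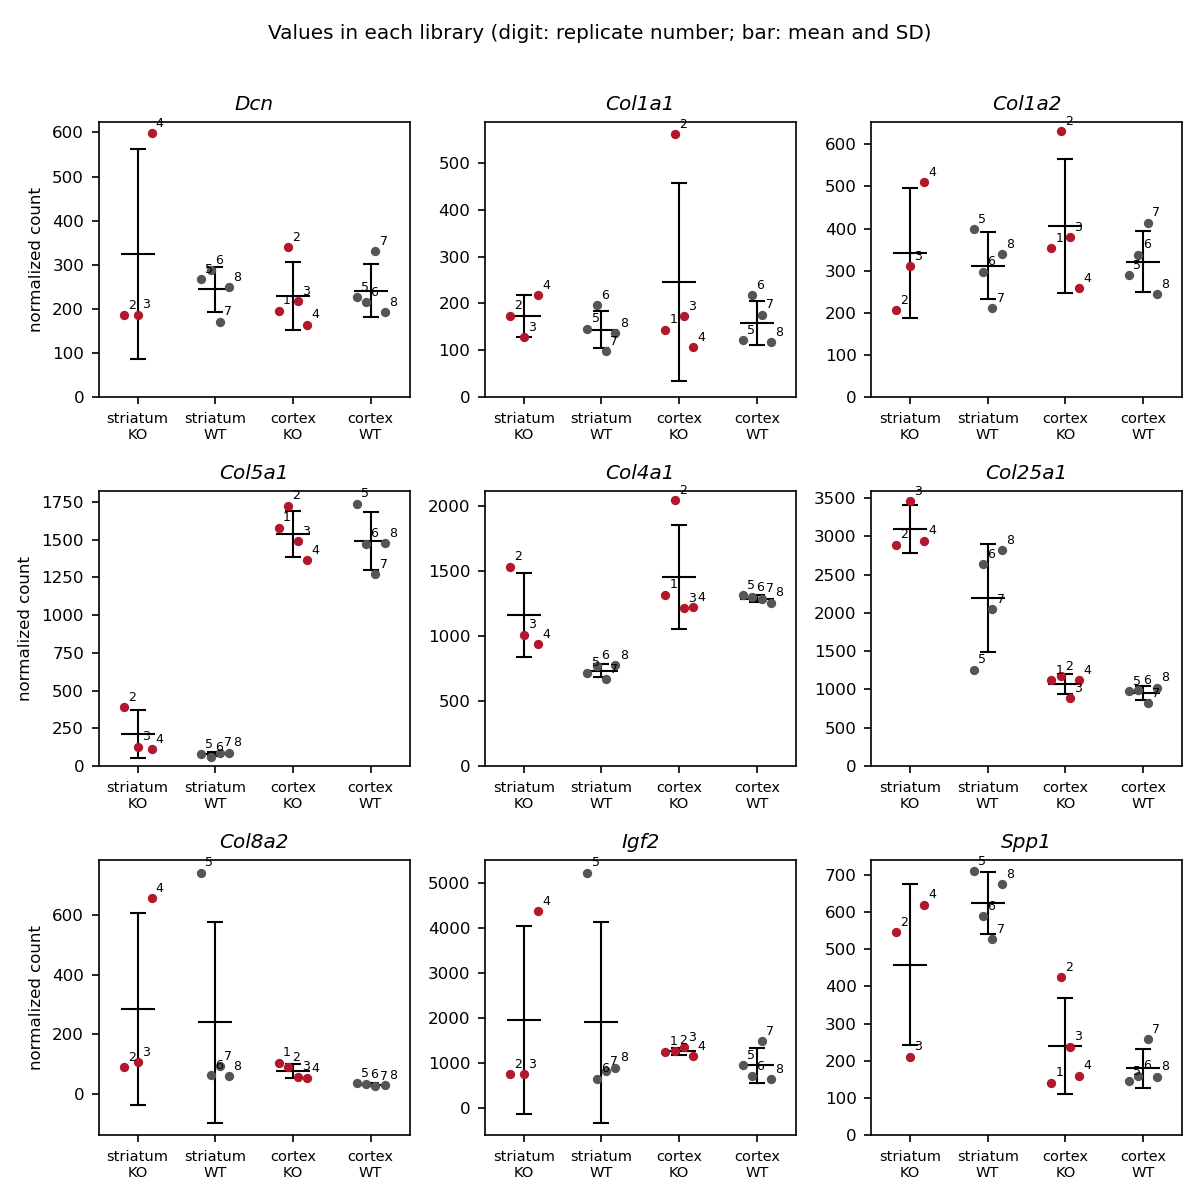
Normalized counts (vertical axes, linear) of 9 members in each library, by group, with KO in red and WT in grey; the digit beside a point is its replicate number and bars give the mean and SD. Dcn, Col1a1 and Col1a2 overlap between all groups, Col5a1 reaches at most 392 in striatum and at least 1273 in cortex, and Col8a2 and Igf2 reach their highest values in KO striatum replicate 4 and WT striatum replicate 5.

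Between the tissues the set split by member. In KO, 20 of 53 members were called between striatum and cortex (37.7%), 8 higher and 12 lower in striatum, where 37.9% of all genes tested were called. In WT, 23 of 53 were called (43.4%), 6 higher and 17 lower in striatum, where the share of all genes was 50.5%. Here and below, called means an adjusted p under 0.05 in limma, with Benjamini-Hochberg adjustment across the 17030 genes. With both directions together, the members' shares lay near or below those backgrounds. By direction, 18.4% of all genes were called higher and 19.5% lower in KO, and 24.9% and 25.7% in WT. In WT the calls of members thus lay more on the lower side than those of all genes. Counted by libraries, 16 members in KO (30.2%, against 41.5% of all genes) and 25 in WT (47.2%, against 47.3%) had no overlap between striatum and cortex. At limma's p before adjustment, 24 members in KO and 27 in WT were below 0.05, where 46.8% and 56.8% of all genes were. Calls in both genotypes covered 16 members, which is 80% of the KO calls and 69.6% of the WT calls, and the difference between genotypes was called for 0 of 53. Of the called members, 10 in KO and 21 in WT stayed past the threshold under every alternative that gave them a value. The share of all called genes that did so was not computed. With KO libraries fitted alone, 13 members were called in KO (31.7% of all genes), Col17a1, Col20a1, Col28a1, Col4a2, Col4a5, Col5a2 and Col6a2 being lost, and 13 also without cortex KO replicate 3 (32.2% of all genes). Without the filter on low values, Col17a1, Col2a1, Col4a5 and Col5a2 lost their KO call. The median log2 fold change was -0.05 in KO and -0.16 in WT, against 0.0024 and 0.0058 over all genes.

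**Figure D2:**
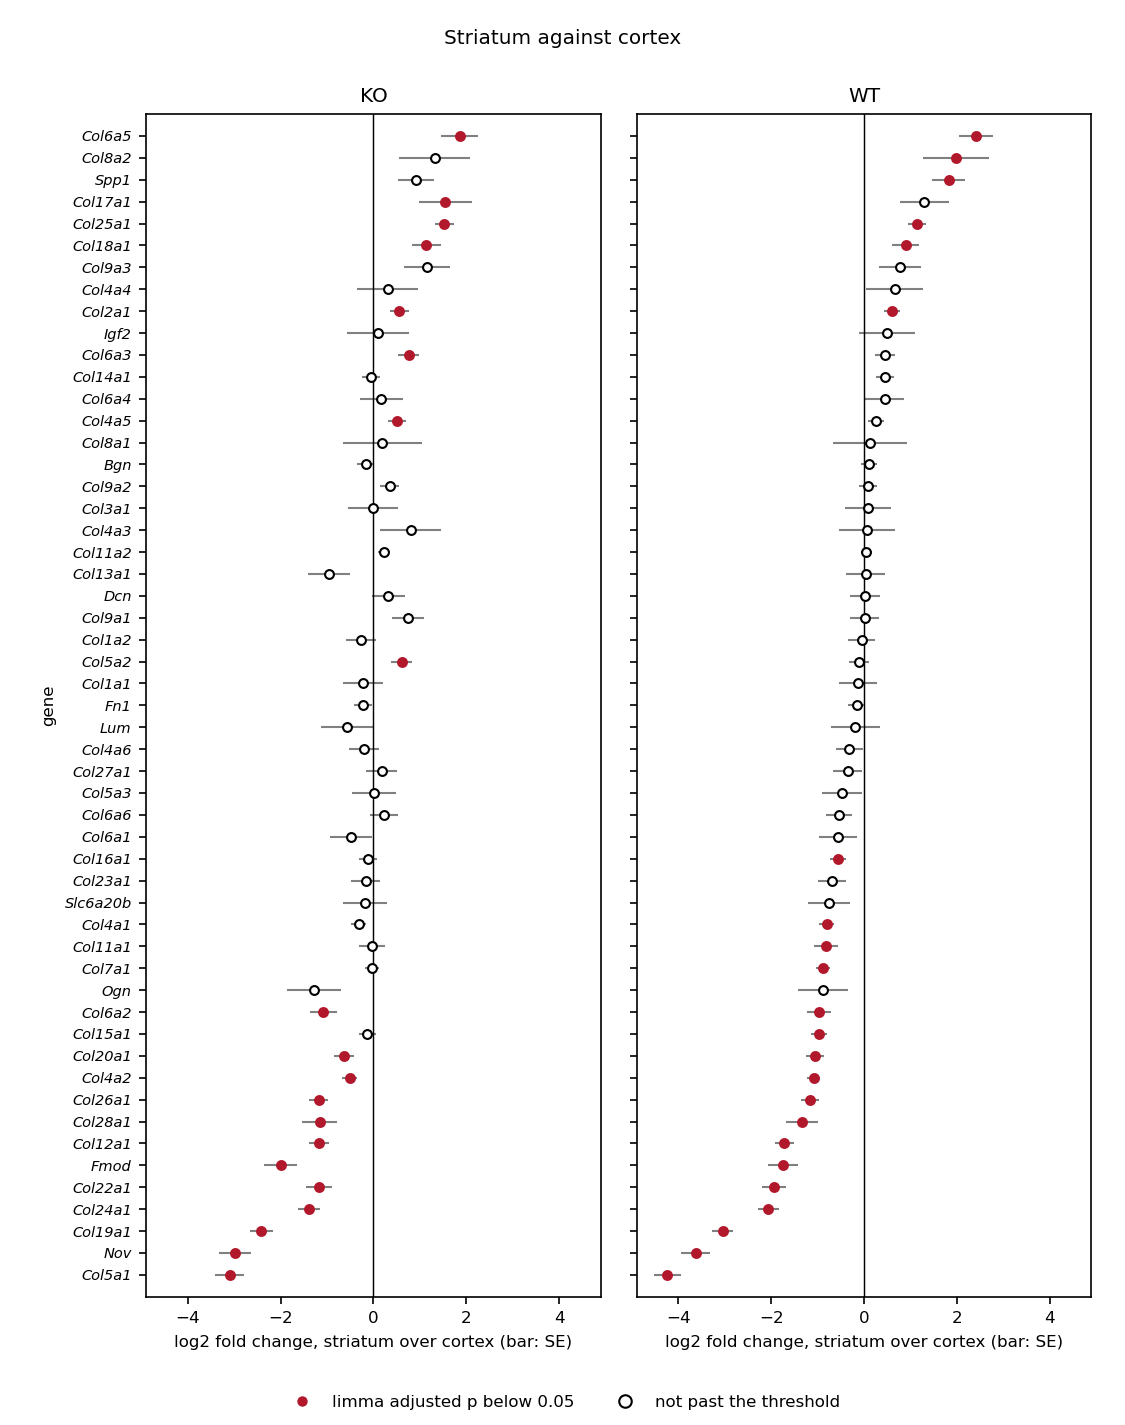
Log2 fold change of striatum over cortex (horizontal axes, on the log2(normalized count + 1) scale, bars SE) for the 53 members in KO (left) and WT (right), in the order of the WT values; filled points passed the limma threshold. Col6a5 heads both panels, at 1.86 in KO and 2.41 in WT, and Col5a1 closes both, at -3.10 and -4.24.

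Per kilobase of exon, the scale on which genes can be compared, Col6a1 (413 normalized counts per kb), Igf2 (342), Spp1 (278), Col25a1 (239) and Col4a2 (202) had the highest mean levels in KO striatum. In WT striatum these were Spp1 (379), Igf2 (332), Col6a1 (310), Col25a1 (169) and Col9a3 (150). In KO cortex they were Nov (876), Col6a1 (455), Col4a2 (286), Igf2 (220) and Col4a1 (194), and in WT cortex Nov (795), Col6a1 (457), Col4a2 (288), Col5a1 (176) and Col4a1 (173). Several of these neighbours in rank lie within the SD of their libraries, and the striatal means of Igf2 and Col9a3 rest on the pair rich in choroid plexus transcripts. Col6a1 had a wide spread in KO striatum (SD 1184 normalized counts), at 2540, 2446 and, in replicate 4, 445. The lowest level per kb in every group belonged to Slc6a20b. It stood at 1.03 in KO striatum, 0.612 in WT striatum, 0.99 in KO cortex and 1.06 in WT cortex. Slc6a20b shares 21.1% of its exonic bases with Sacm1l on the opposite strand, so its values are uncertain.

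The sequence just upstream of 5 members is shown because these members take each course between the tissues: Col5a1 and Col24a1 fell in striatum, Col25a1 rose, and Col3a1 and Col8a1 were not called. The 100 bases before the transcription start that RefSeq gives are printed 5′ to 3′ on the strand of the gene (GRCm38.p6). They span chr2:27886325-27886424 (plus strand, Col5a1), chr3:145292372-145292471 (plus, Col24a1), chr3:130180745-130180844 (plus, Col25a1), chr1:45311438-45311537 (plus, Col3a1) and chr16:57754738-57754837 (minus, Col8a1). None overlaps an annotated exon. The Col25a1 window lies inside the longer gene that GENCODE gives (chr3:130131501-130599877), and the others lie directly before the annotated gene. Capitals mark GGGCGG, the GC box, or its reverse complement CCGCCC.
Col5a1: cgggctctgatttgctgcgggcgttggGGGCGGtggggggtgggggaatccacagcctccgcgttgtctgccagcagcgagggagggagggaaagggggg
Col24a1: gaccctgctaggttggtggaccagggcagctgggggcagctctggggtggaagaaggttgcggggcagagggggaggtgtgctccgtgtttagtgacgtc
Col25a1: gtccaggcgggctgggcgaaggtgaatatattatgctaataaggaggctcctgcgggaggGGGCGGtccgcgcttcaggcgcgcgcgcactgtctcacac
Col3a1: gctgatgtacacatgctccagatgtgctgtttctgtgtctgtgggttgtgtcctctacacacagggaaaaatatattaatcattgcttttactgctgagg
Col8a1: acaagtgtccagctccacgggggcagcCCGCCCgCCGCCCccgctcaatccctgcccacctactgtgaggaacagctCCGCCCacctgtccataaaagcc

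The Col5a1 window holds 1 match and the Col25a1 window 1 match, on the strand shown, and the Col8a1 window holds 3 on the opposite strand. The Col24a1 and Col3a1 windows hold none, and their GC content is 65% and 43%. Over 250 bases upstream, 40 of 53 members had a window in the RefSeq table (47 windows). GGGCGG on either strand was present in 53.2% of these, against 32.7% of all 32851 windows. CCAAT (reverse complement ATTGG) was present in 31.9% against 33.8%, and TATAAA, searched on both strands as well, in 12.8% against 12.4%. A match is a string of letters, and its presence or absence says nothing of the factor that can bind it.

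The fibrillar chains, which pack into the fibers of connective tissue, included the member that differed most between the tissues. Col5a1, a chain of collagen V that limits the width of collagen I fibrils, lies at chr2:27886425-28039514 (plus strand, GRCm38). It stood at 392, 129 and 110 normalized counts in KO striatum, 79.6, 56.9, 88.6 and 89 in WT striatum, 1579, 1726, 1488 and 1366 in KO cortex, and 1738, 1473, 1273 and 1476 in WT cortex. Every striatum library lay below every cortex library, and KO striatum replicate 2 was the highest of striatum. Its level was 8.6-fold lower in striatum in KO (log2 -3.10, SE 0.31, limma adjusted p = 4.1e-06) and 18.9-fold lower in WT (log2 -4.24, SE 0.29, limma adjusted p = 4.3e-08), on the log2(normalized count + 1) scale used for all fold changes here. Col24a1, a minor fibrillar chain, stood at 128, 88.7 and 86.8 in KO striatum, 44.4, 75.2, 65.1 and 92.2 in WT striatum, 250, 250, 216 and 354 in KO cortex, and 311, 259, 230 and 343 in WT cortex. Again no striatum library reached any cortex library. The log2 fold change was -1.39 in KO (SE 0.24, limma adjusted p = 3.6e-04) and -2.06 in WT (SE 0.22, limma adjusted p = 3.0e-06).

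The other fibrillar chains moved less. Col11a1, a chain of cartilage fibrils, averaged 527 ± 229 in KO striatum, 284 ± 60.4 in WT striatum, 519 ± 128 in KO cortex and 502 ± 97.1 in WT cortex (SD, n = 3, 4, 4 and 4), and was called between tissues in WT (log2 -0.82, SE 0.25, limma adjusted p = 0.012). Col2a1, the main cartilage collagen, was higher in striatum, by 0.56 in KO (SE 0.20, limma adjusted p = 0.036) and 0.60 in WT (SE 0.18, limma adjusted p = 0.013). Its KO call ended without cortex KO replicate 2 or 3 or striatum KO replicate 3 or 4 (log2 0.49, 0.52, 0.44 and 0.57). Col5a2, the second chain of collagen V, stood at 152, 131 and 104 in KO striatum, 83, 77.2, 68.4 and 111 in WT striatum, 97.7, 104, 61.7 and 77.4 in KO cortex, and 92.3, 117, 67.6 and 91.2 in WT cortex. The KO striatum values overlapped those of KO cortex at the edge, with 104 the lowest of KO striatum. It was called in KO (log2 0.61, SE 0.23, limma adjusted p = 0.047) and stood at -0.11 in WT (SE 0.21, limma adjusted p = 0.68). That call ended when any 1 of 8 libraries was left out (cortex KO 3 or 4, cortex WT 5 or 8, striatum KO 2 or 3, striatum WT 5 or 6), with log2 values from 0.46 to 0.61. Besides Col1a1 and Col1a2, the chains Col3a1, Col5a3, Col11a2 and Col27a1 were called in neither genotype, with log2 values from -0.47 to 0.23. Col27a1, at -0.35 in WT, was called there with WT libraries alone (limma adjusted p = 0.035).

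Fibril-associated collagens sit on the surface of fibrils and carry interrupted helices. Of these 9 chains, 4 were called in KO (44.4%, against 37.9% of all genes) and 5 in WT (55.6%, against 50.5%). All these calls were lower in striatum, where 19.5% of all genes in KO and 25.7% in WT were called as lower. Only with both directions together did the shares lie near those of all genes. Col19a1, which in mice is made by interneurons and takes part in synapse formation, stood at 231, 189 and 90 in KO striatum, 76.2, 107, 130 and 117 in WT striatum, 1013, 707, 844 and 852 in KO cortex, and 881, 917, 792 and 928 in WT cortex. The lowest cortex library, at 707, lay far above the highest striatum library, at 231. Its log2 fold change was -2.42 in KO (SE 0.25, limma adjusted p = 5.2e-06) and -3.05 in WT (SE 0.23, limma adjusted p = 1.2e-07). Col22a1, known from muscle-tendon junctions, stood at 30.7, 18.8 and 19.1 in KO striatum, 12.5, 7.11, 13.5 and 17 in WT striatum, 52.8, 55.2, 60.8 and 39.2 in KO cortex, and 38.6, 63.7, 49.4 and 48.1 in WT cortex, without overlap between the tissues. The change was -1.17 in KO (SE 0.28, limma adjusted p = 0.0045) and -1.95 in WT (SE 0.26, limma adjusted p = 2.6e-05). Col12a1, which coats fibrils in tissues under tension, changed by -1.17 in KO and -1.72 in WT (limma adjusted p = 9.7e-04 and 1.1e-05). Col20a1 changed by -0.64 in KO and -1.06 in WT (limma adjusted p = 0.029 and 5.3e-04). The KO call of Col20a1 ended without cortex KO replicate 3 or 4 or striatum KO replicate 2 or 4, with log2 values of -0.57, -0.61, -0.52 and -0.50. Col16a1 was called in WT (log2 -0.57, limma adjusted p = 0.013) and stood at -0.11 in KO (limma adjusted p = 0.67). The 3 chains of collagen IX and Col14a1 were called in neither genotype by limma. Col9a3, at 1.15 in KO, was called there by edgeR and DESeq2 (log2 1.41, adjusted p = 0.047 and 0.039), and by limma without striatum KO replicate 3 (1.48), without striatum WT replicate 5 (1.15) or without both choroid-rich libraries (0.54, adjusted p = 0.016). Col14a1, at 0.45 in WT, was called there by edgeR and DESeq2 (log2 0.50, adjusted p = 0.048 and 0.045), with scaling to all counted reads (0.48), and without cortex KO replicate 1 (0.45) or striatum WT replicate 7 (0.58).

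Among the basement membrane chains, Col4a1 and Col4a2, which form the collagen IV of blood vessels, were lower in striatum, and Col4a3, Col4a4 and Col4a6 were called in neither genotype. Col4a1 stood at 1534, 1010 and 939 in KO striatum, 719, 772, 670 and 777 in WT striatum, 1319, 2047, 1217 and 1220 in KO cortex, and 1313, 1298, 1287 and 1257 in WT cortex. Replicate 2 was the highest KO library in both tissues, and WT striatum lay below all other libraries. Col4a2 stood at 1563, 1456 and 994 in KO striatum, 858, 921, 828 and 959 in WT striatum, 1881, 2433, 1646 and 1606 in KO cortex, and 2076, 2059, 1690 and 1796 in WT cortex. The log2 fold change of striatum over cortex was -0.32 in KO (SE 0.17, limma adjusted p = 0.16) and -0.81 in WT (SE 0.16, limma adjusted p = 7.1e-04) for Col4a1, and -0.51 in KO (SE 0.16, limma adjusted p = 0.019) and -1.09 in WT (SE 0.14, limma adjusted p = 2.3e-05) for Col4a2. The KO call of Col4a2 ended without cortex KO replicate 2 (log2 -0.38) or striatum KO replicate 4 (log2 -0.31), and Col4a1 gained a KO call without striatum KO replicate 2 (log2 -0.54). The 2 genes lie head to head on chromosome 8 and share 22 exonic bases. Col4a5, an X-linked chain, stood at 107, 144 and 178 in KO striatum, 166, 118, 108 and 111 in WT striatum, 92.5, 114, 95.7 and 92.4 in KO cortex, and 98.9, 102, 124 and 91.2 in WT cortex. The groups overlapped in both genotypes. It was called as higher in KO striatum than in KO cortex (log2 0.51, SE 0.19, limma adjusted p = 0.043) and stood at 0.26 in WT (SE 0.17, limma adjusted p = 0.23). Leaving out any 1 of 8 libraries ended that call (cortex KO 1, 3 or 4, cortex WT 5 or 6, striatum KO 3 or 4, striatum WT 6), at log2 values from 0.34 to 0.51.

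The multiplexins, basement membrane collagens that carry endostatin-like ends, moved in opposite directions. Col18a1 was higher in striatum by 1.14 in KO (SE 0.31, limma adjusted p = 0.01) and 0.90 in WT (SE 0.29, limma adjusted p = 0.018). Its WT call ended without cortex WT replicate 5 (log2 0.81) or striatum WT replicate 5 (log2 0.68). Col15a1 stood at 138, 198 and 223 in KO striatum, 102, 102, 118 and 146 in WT striatum, 224, 158, 215 and 214 in KO cortex, and 236, 242, 253 and 190 in WT cortex. WT striatum lay below WT cortex without overlap, and the KO groups overlapped. Its log2 fold change was -0.13 in KO (SE 0.18, limma adjusted p = 0.60) and -0.98 in WT (SE 0.17, limma adjusted p = 2.4e-04).

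Collagen VI, the beaded filament collagen around cells and vessels, held both directions. Col6a5 (chr9:105856078-105960643, minus strand), one of the longer chains related to Col6a3, stood at 119, 198 and 78.3 in KO striatum, 66, 117, 119 and 76.3 in WT striatum, 43.1, 38.4, 28.6 and 25.2 in KO cortex, and 15.1, 25.7, 7.31 and 25.1 in WT cortex. All striatum libraries were above all cortex libraries. Its level was 3.64-fold higher in striatum in KO (log2 1.86, SE 0.40, limma adjusted p = 0.0021) and 5.3-fold higher in WT (log2 2.41, SE 0.37, limma adjusted p = 9.2e-05). Col6a3, one of the 3 chains of the common collagen VI, stood at 168, 138 and 130 in KO striatum, 77.3, 131, 135 and 102 in WT striatum, 123, 94.5, 62.6 and 70.9 in KO cortex, and 86.6, 80.8, 75.9 and 73.2 in WT cortex. In KO the tissues did not overlap, and in WT replicate 5 of striatum fell within the cortex range. The change was 0.76 in KO (SE 0.23, limma adjusted p = 0.016) and 0.45 in WT (SE 0.21, limma adjusted p = 0.084), and the KO call ended without cortex KO replicate 3 (log2 0.61) or striatum KO replicate 2 (log2 0.65), while WT gained one without striatum WT replicate 5 (log2 0.62). Col6a2 was lower in striatum by -1.08 in KO (SE 0.29, limma adjusted p = 0.0082) and -0.98 in WT (SE 0.26, limma adjusted p = 0.0066), with the KO call ending in the fit of KO libraries alone (limma adjusted p = 0.054). Col6a1, Col6a4 and Col6a6 were called in neither genotype with all libraries, and Col6a1, at -0.56 in WT, was called there with WT libraries alone (limma adjusted p = 0.028) or without striatum KO replicate 4 (limma adjusted p = 0.015).

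Among the transmembrane collagens, Col25a1, whose shed ectodomain was first found in amyloid plaques, was called in both genotypes. It stood at 2892, 3460 and 2944 in KO striatum, 1259, 2633, 2053 and 2823 in WT striatum, 1122, 1178, 885 and 1125 in KO cortex, and 975, 994, 817 and 1025 in WT cortex. No striatum library fell into the range of cortex, and KO striatum lay above WT striatum in every library. Its log2 fold change was 1.53 in KO (SE 0.21, limma adjusted p = 6.0e-05) and 1.14 in WT (SE 0.19, limma adjusted p = 2.0e-04). Col17a1, a collagen of hemidesmosomes, stood at 13.1, 45.9 and 45.5 in KO striatum, 80.8, 19.3, 28 and 22.3 in WT striatum, 22, 8.42, 6.26 and 7.46 in KO cortex, and 10.4, 16.2, 6.4 and 20.1 in WT cortex. The tissues overlapped in both genotypes. It was called in KO (log2 1.55, SE 0.57, limma adjusted p = 0.045) and stood at 1.30 in WT (SE 0.53, limma adjusted p = 0.052). The KO call ended without any 1 of 8 libraries (cortex KO 2, 3 or 4, cortex WT 5 or 6, striatum KO 3 or 4, striatum WT 7), at log2 values from 1.26 to 1.55, and WT gained one without any 1 of 6 (cortex KO 1, cortex WT 8, striatum KO 2 or 4, striatum WT 6 or 8), at 1.30 to 1.53. For Col17a1, edgeR and DESeq2 also made the WT call (log2 1.5, adjusted p = 0.037 and 0.02). Col13a1 and Col23a1 were called in neither genotype with all libraries. Col13a1, at -0.96 in KO, was called there without striatum KO replicate 4 (log2 -1.59, limma adjusted p = 0.0056). Col23a1, at -0.70 in WT, was called there with WT libraries alone (limma adjusted p = 0.0011), by DESeq2 (log2 -0.72, adjusted p = 0.037) and without striatum KO replicate 2 or 4 (limma adjusted p = 0.01), and in KO without striatum KO replicate 2 (log2 -0.68, against -0.17).

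The short-chain network collagen Col8a2, known from the membrane beneath the corneal endothelium, was called in WT with large spread. It stood at 89.8, 108 and 656 in KO striatum, 743, 64, 93.1 and 59.4 in WT striatum, 105, 90.8, 58.1 and 54.1 in KO cortex, and 35.8, 33.3, 27.4 and 30.1 in WT cortex. The 2 highest values belong to KO striatum replicate 4 and WT striatum replicate 5, and the other WT striatum libraries still lay above WT cortex. The change was 1.32 in KO (SE 0.76, limma adjusted p = 0.19) and 1.99 in WT (SE 0.71, limma adjusted p = 0.029). The WT call ended without cortex WT replicate 6, 7 or 8 (log2 2.01, 1.92 and 1.97) or striatum WT replicate 5 (log2 1.14, limma adjusted p = 0.081), and held without both choroid-rich libraries (log2 1.14, limma adjusted p = 0.0011).

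Col7a1, which builds the anchoring fibrils of skin, stood at 92, 115 and 66.7 in KO striatum, 60.3, 58.9, 55 and 64.7 in WT striatum, 93.3, 99.2, 89.5 and 82.1 in KO cortex, and 108, 123, 99.6 and 113 in WT cortex. WT striatum was the lowest group and did not overlap WT cortex, whereas the KO groups overlapped. Its change between tissues was -0.03 in KO (SE 0.16, limma adjusted p = 0.91) and -0.88 in WT (SE 0.15, limma adjusted p = 2.1e-04). Col26a1 was lower in striatum, with log2 changes of -1.18 in KO and -1.17 in WT (limma adjusted p = 5.9e-04 and 2.1e-04), and so was Col28a1, with -1.16 and -1.34 (limma adjusted p = 0.023 and 0.0051). The KO call of Col28a1 ended without cortex KO replicate 1 or 3 or striatum KO replicate 3 or 4, at log2 values from -1.10 to -0.71, and with edgeR (log2 -0.96, edgeR adjusted p = 0.06).

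Of the 5 small leucine-rich proteoglycans, which bind and space collagen fibrils, Fmod (fibromodulin) was called in both genotypes. It averaged 105 ± 47 in KO striatum, 98.1 ± 24 in WT striatum, 408 ± 108 in KO cortex and 351 ± 164 in WT cortex (SD, n = 3, 4, 4 and 4). Its log2 change in striatum was -2.0 in KO (SE 0.35, limma adjusted p = 4.9e-04) and -1.75 in WT (SE 0.33, limma adjusted p = 4.4e-04). Bgn (biglycan), Dcn, Lum (lumican) and Ogn (osteoglycin) were called in neither genotype.

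Of the glycoproteins, Spp1 (osteopontin, a phosphoprotein of bone and of activated microglia) was higher in striatum in WT. It stood at 545, 211 and 620 in KO striatum, 710, 588, 527 and 676 in WT striatum, 141, 424, 238 and 160 in KO cortex, and 144, 160, 257 and 157 in WT cortex. The WT tissues were far apart, while KO striatum replicate 3 fell into the range of KO cortex. The change was 0.92 in KO (SE 0.38, limma adjusted p = 0.068) and 1.82 in WT (SE 0.35, limma adjusted p = 5.6e-04). A KO call appeared without cortex KO replicate 2 (log2 1.24) or striatum KO replicate 3 (log2 1.41), and with DESeq2 (log2 0.93, adjusted p = 0.032). Fn1 (fibronectin) averaged 1423 ± 251 in KO striatum, 1229 ± 303 in WT striatum, 1672 ± 438 in KO cortex and 1348 ± 118 in WT cortex (SD, n = 3, 4, 4 and 4) and was not called.

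Nov (Ccn3), a secreted matricellular protein encoded at chr15:54745702-54754039 (plus strand), came next after Col5a1 in the size of its difference between tissues. It stood at 477, 432 and 155 in KO striatum, 101, 185, 206 and 284 in WT striatum, 2462, 2533, 2819 and 2235 in KO cortex, and 2094, 2682, 2464 and 1885 in WT cortex. Cortex exceeded striatum in every library. Its level was 7.87-fold lower in striatum in KO (log2 -2.98, SE 0.35, limma adjusted p = 1.5e-05) and 12.4-fold lower in WT (log2 -3.63, SE 0.32, limma adjusted p = 5.3e-07). Igf2, a growth factor made by meninges and choroid plexus in the adult brain, stood at 753, 749 and 4370 in KO striatum, 5234, 654, 820 and 900 in WT striatum, 1253, 1275, 1360 and 1154 in KO cortex, and 957, 706, 1491 and 640 in WT cortex. The 2 libraries above all others are again KO striatum replicate 4 and WT striatum replicate 5. Igf2 and Slc6a20b, which encodes a transporter of the SLC6 family, were called in neither genotype.

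Those 2 choroid-rich libraries held the 2 highest striatum values for 15 of 53 members (28.3%), against 8.32% of all genes tested. They were Bgn, Col13a1, Col18a1, Col1a2, Col4a3, Col4a4, Col4a5, Col8a1, Col8a2, Col9a3, Fmod, Igf2, Lum, Ogn and Slc6a20b. Col8a1, the partner chain of Col8a2, stood at 656 in KO replicate 4 and 880 in WT replicate 5, against 63.6 and 72.3 in the other KO striatum libraries and 52.7 to 86.9 in the other WT striatum libraries. With both left out, Col8a1 was lower in striatum than in cortex, by -0.90 in KO (limma adjusted p = 0.0044) and -0.80 in WT (limma adjusted p = 0.0026), where all libraries gave 0.19 and 0.13. The direction of Col8a1 thus turned with these libraries. Ogn moved likewise to -2.05 in KO (limma adjusted p = 1.4e-04) and -1.40 in WT (limma adjusted p = 6.3e-04), against -1.28 and -0.89 with all libraries. Lum stood at -1.48 in KO (limma adjusted p = 0.0014), against -0.57 with all libraries, and Igf2 at -0.74 in KO (limma adjusted p = 0.027), against 0.10. Without the pair, 20 members were called in KO, where 37.1% of all genes were, and 29 in WT, where 52.6% were.

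The comparison of KO with WT striatum asked what loss of the transporter changes in that tissue. No member passed limma's test (0 of 53, where 0.0763% of all genes were called and 0.0705% as higher), edgeR also called 0, and DESeq2 called 5: Col11a1, Col15a1, Col4a1, Col4a2 and Col5a1, all higher in KO (1.88% of all genes called, 1.02% as higher). Before adjustment, 17 members had a limma p below 0.05, where 15.3% of all genes did, and all 17 values were higher in KO. Log2 fold changes lay above 0 for 43 of 53 members, with a median of 0.33, against 51.7% and 0.0079 over all genes. In 10 members every KO striatum library lay above every WT striatum library (Col12a1, Col22a1, Col25a1, Col27a1, Col4a1, Col4a2, Col5a1, Col6a6, Col7a1 and Col9a1), where 3.96% of all genes did. In 0 members every KO library lay below every WT library, where 4.12% of all genes did, and 8.07% of all genes had no overlap in either direction.

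The smallest p-values belonged to Col5a1, Col4a1, Col4a2 and Col15a1. Col5a1 averaged 210 ± 157 in KO and 78.5 ± 15.1 in WT striatum (SD, n = 3 and 4), a log2 fold change of 1.19 (SE 0.31, 95% interval 0.52 to 1.86, limma adjusted p = 0.17). Col4a1 averaged 1161 ± 325 and 734 ± 50.5 (log2 0.63, SE 0.17, interval 0.26 to 1.0, limma adjusted p = 0.17), and Col4a2 averaged 1338 ± 303 and 891 ± 59.5 (log2 0.56, SE 0.16, interval 0.23 to 0.89, limma adjusted p = 0.17). KO and WT striatum did not overlap for these 3 chains. Col15a1 averaged 186 ± 43.9 in KO and 117 ± 20.9 in WT (log2 0.66, SE 0.18, interval 0.27 to 1.04, limma adjusted p = 0.17), with overlap. By class, and with no test between classes, values lay above 0 for 10 of 11 fibrillar, 8 of 9 fibril-associated, 6 of 6 collagen IV, 6 of 6 collagen VI, 2 of 2 short-chain, 2 of 2 multiplexin, 2 of 4 transmembrane and 1 of 3 anchoring and other chains. They lay above 0 for 2 of 5 leucine-rich proteoglycans, 1 of 2 glycoproteins and 3 of 3 of Igf2, Nov and Slc6a20b.

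These counts moved with single libraries. Without KO striatum replicate 4, limma called 10 members (Col11a1, Col19a1, Col23a1, Col4a1, Col4a2, Col5a1, Col6a1, Col6a4, Col7a1 and Nov), all higher in KO, where 3.03% of all genes were called and 1.8% as higher. Without both choroid-rich libraries it called 5 (Col19a1, Col4a2, Col5a1, Col7a1 and Nov), where 2% of all genes were called and 1.37% as higher. Both fits left only replicates 2 and 3 of KO striatum. Replicate 2 held the highest striatum value of every member named here except Col11a1 and Col7a1. Col5a1 then stood at 1.53 without replicate 4 and 1.54 without the pair (limma adjusted p = 0.022 and 0.03). Without KO striatum replicate 2, the library with 392 normalized counts of Col5a1, the change of Col5a1 was 0.62 (limma adjusted p = 0.14), 0 members were called by limma and 11 had an unadjusted p below 0.05. The part that the neighbouring-region and meningeal markers of KO replicate 4 have in these counts was not tested. The 12 markers of cortical excitatory neurons, none at 0 and 1 of them called, summed to 16687, 11320 and 18438 in KO striatum and 8523, 8763, 10002 and 12350 in WT striatum, with overlap between KO replicate 3 and WT replicate 8. The called marker was Neurod2, higher in KO striatum (log2 2.30, SE 0.38, limma adjusted p = 0.03). With striatum libraries fitted alone, limma called 0 of all genes between KO and WT, Slc1a4 and Neurod2 included, and 13 members had an unadjusted p below 0.05. Striatal projection neuron markers had log2 values below 0 for 12 of 12 genes in the same comparison (median -0.80, 0 called). Their part in the values of the matrix genes was not tested.

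**Figure D3:**
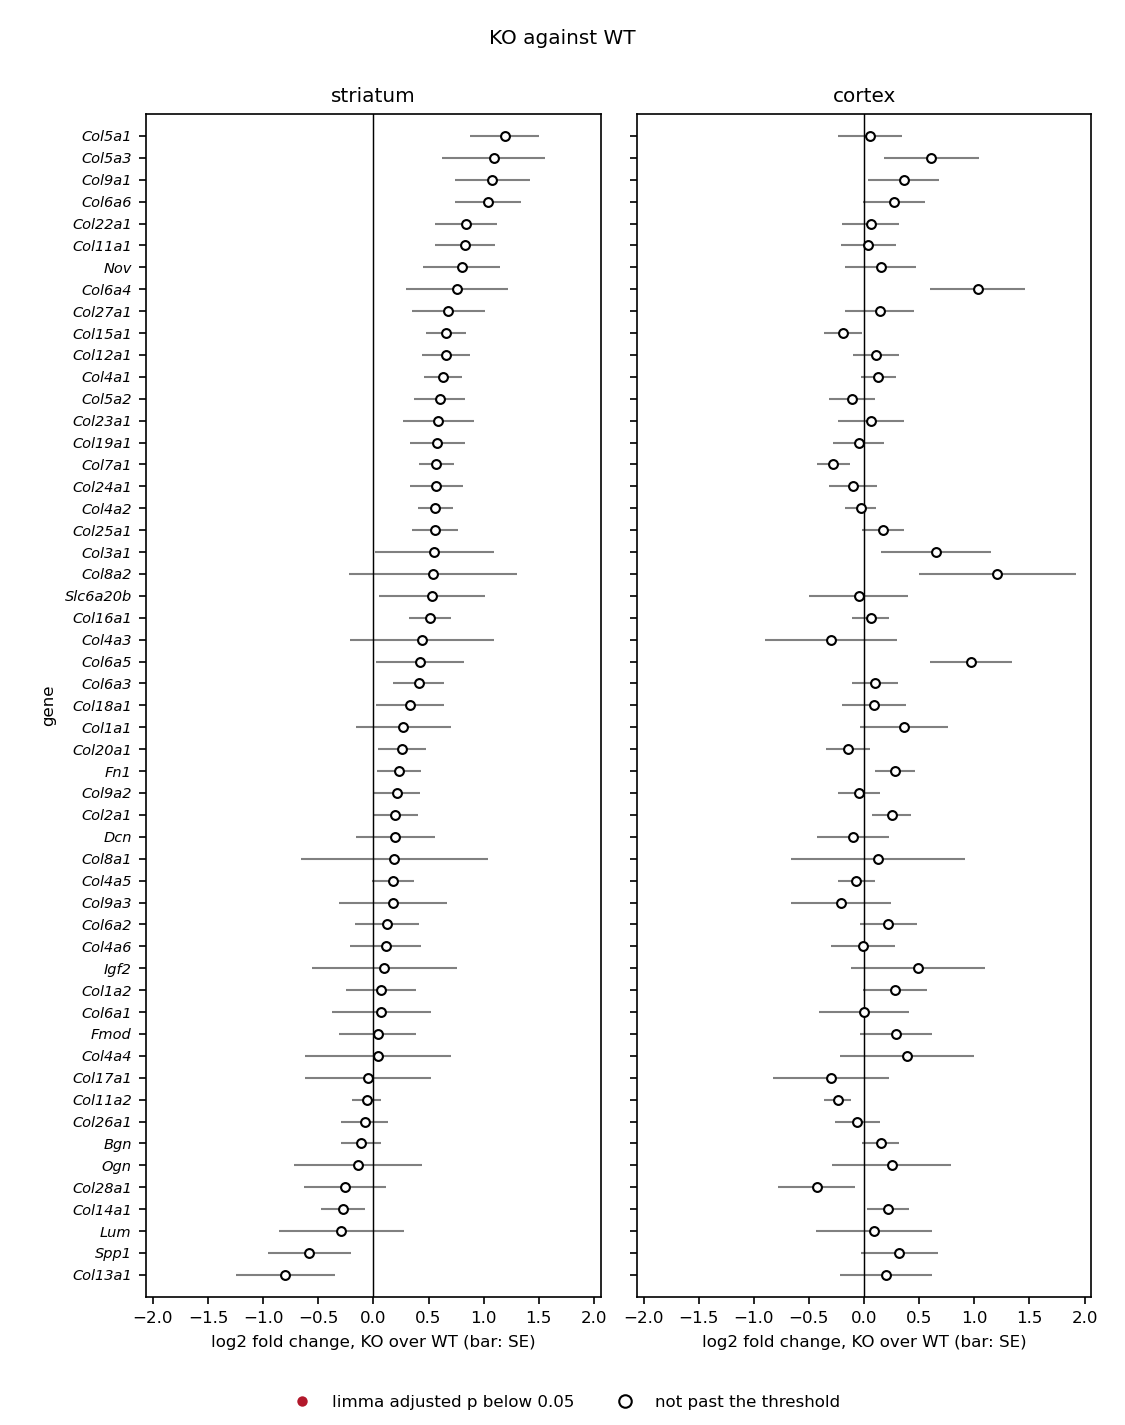
Log2 fold change of KO over WT (horizontal axes, bars SE) for the 53 members in striatum (left) and cortex (right), in the order of the striatal values; no member passed the limma threshold in either tissue. In striatum 43 of 53 points lie above 0 and in cortex 35 of 53.

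In cortex no member separated KO from WT by limma (0 of 53 called, where 0.00587% of all genes were), and edgeR and DESeq2 also called 0. Before adjustment, Col6a5 and Col6a4, 2 members, had a limma p below 0.05, where 2.51% of all genes did. Log2 fold changes lay above 0 for 35 of 53 members, with a median of 0.10, against 50.5% and 0.0012 over all genes. Col6a4, a chain of collagen VI, stood at 406, 327 and 81.5 in KO striatum, 105, 190, 127 and 114 in WT striatum, 122, 249, 249 and 197 in KO cortex, and 86.6, 164, 63.1 and 94.2 in WT cortex. The cortex groups overlapped by KO replicate 1 and WT replicate 6. Its change in cortex was 1.03 (SE 0.43, 95% interval 0.11 to 1.94, limma adjusted p = 1.0), and that of Col6a5 was 0.97 (SE 0.37, interval 0.17 to 1.76, limma adjusted p = 1.0).

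Next in order of p were Col11a2 and Col7a1. Col11a2, a cartilage fibril chain, stood at 696, 664 and 664 in KO striatum, 801, 658, 704 and 667 in WT striatum, 665, 477, 535 and 646 in KO cortex, and 718, 778, 554 and 698 in WT cortex. The groups overlapped in both tissues. Its change in cortex was -0.24 (SE 0.12, interval -0.49 to 0.00, limma adjusted p = 1.0). Col7a1 changed by -0.28 in cortex (SE 0.15, limma adjusted p = 1.0) and by 0.57 in striatum (SE 0.16, limma adjusted p = 0.18), without overlap in either tissue. Cortex groups did not overlap for Col8a2, higher in KO, and Col7a1, lower in KO, among 53 members, where 4.02% of all genes showed such a gap, 1.73% as higher and 2.28% as lower. Choroid plexus markers had log2 values above 0 for 20 of 20 genes in this comparison (median 1.33, 0 called), with sums of 9134 to 16926 in KO cortex and 6731 to 10491 in WT cortex. Their part in the value of Col8a2 was not tested.

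The difference between both knockout effects was tested directly. It was called for 0 of 53 members by limma, where 0.00587% of all genes were called, and also for 0 by edgeR and DESeq2. Before adjustment, 6 had a limma p below 0.05 (Col7a1, Col15a1, Col4a2, Col5a1, Col5a2 and Col11a1), where 4.9% of all genes did. Col7a1 had the smallest p, with a difference of 0.85 (SE 0.22, limma adjusted p = 0.96), and Col15a1 came next at 0.85 (SE 0.25, limma adjusted p = 0.96).

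The highest values were shared unevenly among the libraries. In striatum, KO replicate 2 held the highest value of 19 of 53 members (35.8%, against 13.2% of all genes), KO replicate 4 of 15 (28.3%, against 21.4%), WT replicate 5 of 11 (20.8%, against 20%), KO replicate 3 of 8 (15.1%, against 19.7%), and WT replicates 6, 7 and 8 of 0. In cortex, KO replicate 2 led for 17 members (32.1%, against 16.5% of all genes), among them Col1a1, Col1a2, Col3a1, Col4a1, Col5a3, Col18a1 and Col27a1. Replicate 2 of KO was the highest library of both tissues for 7 members (Col16a1, Col27a1, Col3a1, Col4a1, Col4a2, Col5a3 and Col6a4; 13.2%, against 4.08% of all genes). Gfap, the filament of reactive astrocytes, chosen after its values were seen, stood at 11192 in striatum KO replicate 2 and 13720 in cortex KO replicate 2. Its other values were 2653 and 7100 in KO striatum, 3428 to 4485 in WT striatum, 2923 to 4229 in KO cortex and 2741 to 6214 in WT cortex. Its part in the matrix values was not tested.

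**Figure D4:**
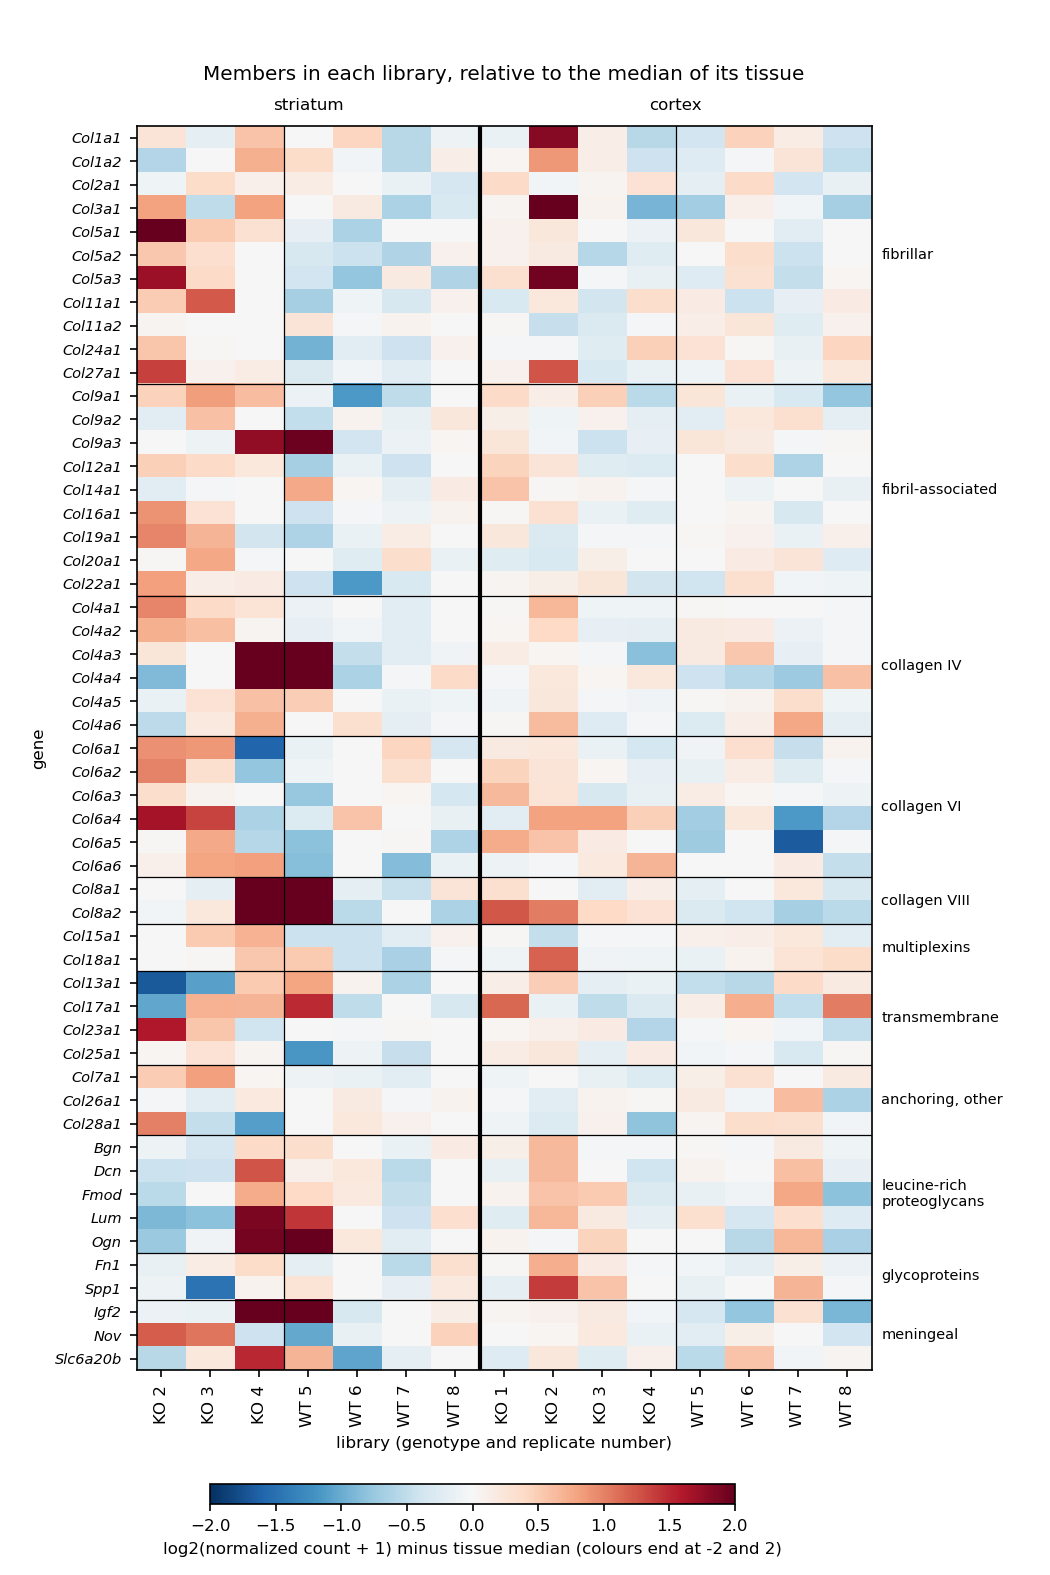
Log2(normalized count + 1) of each member in each library minus the median of its tissue (colour, ends at -2 and 2), with members grouped by class in rows and libraries in columns, KO left of WT in each tissue. KO replicate 2 is the highest library of both tissues for Col3a1, Col5a3 and Col27a1, and striatum KO replicate 4 and WT replicate 5 are the highest of striatum for Col4a3, Col4a4, Col8a1, Col8a2, Igf2, Lum and Ogn.

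Genes that build, bind or degrade the same matrix were compared between the tissues as well. Of 30 tested genes for collagen folding, processing and crosslinking, 7 were higher and 2 lower in striatum in KO, and 9 higher and 4 lower in WT, that is 9 and 13 in all. Over all genes, 37.9% were called in KO (18.4% higher and 19.5% lower) and 50.5% in WT (24.9% higher and 25.7% lower). Sparc, a collagen chaperone and matricellular protein, averaged 17005 ± 2890 in KO striatum, 15443 ± 4273 in WT striatum, 4147 ± 720 in KO cortex and 4296 ± 672 in WT cortex (SD, n = 3, 4, 4 and 4). Its change was 2.04 in KO and 1.81 in WT (limma adjusted p = 4.0e-06 and 2.7e-06). Bmp1, the protease that trims procollagen ends, went the other way, at -1.18 in KO and -1.58 in WT (limma adjusted p = 2.6e-06 and 3.4e-08).

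Laminins, nidogens and basement membrane proteoglycans were called for 1 higher and 4 lower of 15 in KO, and for 4 higher and 4 lower in WT. Lamb1, a laminin chain, was higher in striatum by 1.19 in KO and 1.71 in WT (limma adjusted p = 3.8e-05 and 2.9e-07). Lower in striatum were Lama4, at -0.81 in KO (limma adjusted p = 0.0021), and Agrn, at -0.67 in WT (limma adjusted p = 2.3e-05). Matrix metalloproteinases and their inhibitors were called for 5 higher and 3 lower of 12 in KO and 5 higher and 5 lower in WT. Collagen receptors were called for 2 higher and 0 lower of 8 in KO and 3 higher and 2 lower in WT, with Ddr1, a receptor kinase for collagen, at 0.78 and 0.80 (limma adjusted p = 5.3e-04 and 1.4e-04). Other meningeal and fibroblast markers were called for 2 higher and 9 lower of 22 in KO and 2 higher and 10 lower in WT. Among them Cemip, a hyaluronan-degrading protein, changed by -1.75 in KO and -2.06 in WT (limma adjusted p = 1.3e-04 and 7.9e-06), and Ranbp3l by -1.62 and -1.79 (limma adjusted p = 5.4e-05 and 5.5e-06), whereas Zic1, a transcription factor that septal and thalamic neurons also make, was higher by 3.14 in KO (limma adjusted p = 1.9e-04). Pcolce stands in both the processing and the meningeal list.

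Cell type markers gave the setting for these values. Over all genes, 18.4% were called higher and 19.5% lower in striatum in KO, and 24.9% and 25.7% in WT. Choroid plexus markers were called as higher in striatum for 3 of 20 in KO and 10 of 20 in WT. Their log2 values lay above 0 for all 20 in both genotypes, with medians of 1.61 in KO and 2.78 in WT. Microglia markers were called as higher for 4 of 10 in KO and 8 of 10 in WT. Endothelial markers were higher for 0 of 12 in KO and 2 of 12 in WT, and mural cell markers were called for 1 higher and 1 lower of 12 in KO and 2 higher in WT. All 12 striatal projection neuron markers were higher in both genotypes. Cortical excitatory neuron markers were called for 1 higher and 10 lower of 12 in both, and markers of neighbouring thalamus, septum and pallidum for 9 higher of 11 in KO and 10 in WT. Between KO and WT, 0 genes of these lists were called in cortex and 1, Neurod2, in striatum.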

How the data were processed

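Per the submitters' processing notes, the tools were FastQC 0.11.5, cutadapt 1.1, TopHat2 2.1.1, HTSeq 0.6.0 and DESeq2 1.12.4 with build GRCm38; their order, the strand setting and the annotation release are not given in the sources used here. The authors deposited a table of normalized signal, that is read counts divided by 1 factor per library. Every value was a whole multiple of its library's step within 0.001, so whole reads were recovered for edgeR 4.0.16 and DESeq2 1.42.0.

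The main test was limma 3.58.1 (R 4.3.3) with a variance trend on log2(normalized count + 1), 4 group means over 15 libraries (11 residual degrees of freedom), Benjamini-Hochberg adjustment over 17030 genes with 10 or more in at least 3 libraries, threshold 0.05. Genes in full are Dcn, Col1a1, Col1a2, the 4 smallest p in each KO comparison, the 8 largest called tissue changes in WT with a mean of at least 20, and up to 4 called in 1 genotype; from other lists, up to 3 called genes by p, of which 1 is not reported here. Other genes named were chosen after their values were seen. Positions and exonic lengths came from GENCODE M21 (99.0% of genes matched); unstranded overlaps are uncertain (Igf2 shares 62.8% of exonic bases with Gm49394, Spp1 18.8% with Gm42793). The members and lists were chosen with earlier results of these data known. The test was checked on simulated counts. Settings varied in turn were the pseudocount, the filter, the scaling, the tool (edgeR, DESeq2), the groups in the fit, a replicate block and each single library; leaving out the 2 choroid-rich striatum libraries was added after the data were seen. Figures used Python 3.11.15 and matplotlib 3.10.9.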

Additional observations from a re-analysis of the deposited data

Results flagged for a closer look

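The check took 159 sets of 4 libraries (53 members in KO cortex, WT cortex and WT striatum). In 20 of them, a library's gap to the nearest other exceeded Dixon's 95% critical share of the range. The 5% of sets that this cutoff lets through holds for independent, normally distributed values. That need not hold for normalized counts of members measured in the same libraries, and the share over all genes was not computed. The 20 sets therefore do not mark the members as unusual. The 3 KO striatum libraries were too few for this check.

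In cortex KO replicate 2, 8 members stood apart. Col18a1 stood at 202 normalized counts, against 83.6 to 85 in the other KO cortex libraries. Col1a1 stood at 561, against 107 to 173, and Col3a1, the chain of reticular fibers, at 187, against 22.4 to 45.6. Col5a3 stood at 392, against 92.4 to 129, and Col27a1 at 551, against 187 to 244. Col4a1 stood at 2047, against 1217 to 1319, and Col4a5 at 114, against 92.4 to 95.7. Col15a1 was low there, at 158, against 214 to 224.

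In striatum WT replicate 5, 7 members were high: Col8a1 at 880 (others 52.7 to 86.9), Col4a3 at 87.6 (10.2 to 13.8), Col8a2 at 743 (59.4 to 93.1), Igf2 at 5234 (654 to 900), Col9a3 at 1360 (268 to 356), Ogn at 273 (55 to 75.2) and Col17a1 at 80.8 (19.3 to 28). This library also has the largest sum of choroid plexus markers, 232065.

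In cortex KO replicate 1, Col14a1 stood at 81 (others 53.2 to 57.3) and Col17a1 at 22 (6.26 to 8.42). In cortex KO replicate 3, Ogn stood at 256 (185 to 197). Spp1 stood at 257 in cortex WT replicate 7 (144 to 160), and Col4a4 at 33.1 in cortex WT replicate 8 (12.8 to 16).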

How the results depend on the processing

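In KO against WT striatum limma called 0 members, but DESeq2 called 5 and the fit without both choroid-rich libraries called 5; leaving out each library in turn gave 0 to 10, the 10 without striatum KO replicate 4. In striatum against cortex the KO count of 20 fell to 13 with KO libraries alone (31.7% of all genes) and ranged over 13 to 21 with each library left out, the 13 without cortex KO replicate 3 (32.2% of all genes); the cause was not tested. The WT count of 23 ranged over 22 to 26, where 8601 of all 17030 genes were called with all libraries. The 22 came without cortex WT replicate 5, 6 or 7 (7724, 7580 and 8008 of all genes). The 26 came without striatum KO replicate 4 (9253 of all genes). KO against WT cortex and the difference of the knockout effects stayed at 0 to 0 under each library left out. With the replicate number as a block, counts were 0 for that difference, 25 for WT and 19 for KO. In the same fit 8312 of all 17030 genes were called in WT and 5367 in KO, against 8601 and 6451 in the main fit. Under the block, KO gained Col4a1 (log2 -0.35, limma adjusted p = 0.0062) and not Col4a5 (0.48, 0.14) or Col18a1 (1.03, 0.056), and WT gained Col27a1 (-0.35, 0.01) and Col23a1 (-0.70, 0.018). Same-numbered libraries of the 2 tissues correlated by 0.0037 to 0.142 after group means were removed, all positive, and 5 of 7 matched best in both directions. Pairing by number is therefore possible, though the labels do not state it. The main fit did not use it, and only the counts under the block take it into account. KO and WT share no replicate numbers and could not be blocked. Of 796 values of 31 single fold changes under alternatives, 743 kept direction and side of the threshold, 44 lost the call, 9 gained it and 0 reversed. That tally does not cover every member. Without both choroid-rich libraries, Col8a1 between tissues turned from 0.19 to -0.90 in KO and from 0.13 to -0.80 in WT. Igf2 likewise turned from 0.10 to -0.74 in KO. Members with few reads, such as Slc6a20b, cannot show small differences at this depth.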
